A study of Sus scrofa with 9 samples.

Results

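Translation initiation and elongation factors are the proteins that load the ribosome onto mRNA and then move it along. The genes described here are the 51 rows of the 23507 in the deposited table whose symbol starts with EIF or EEF, leaving out the EIF2AK kinase genes, and they fall into 41 initiation and 10 elongation factor genes. Of these 10, 5 encode a kinase and methyltransferases that modify elongation factors. The 41 were grouped by symbol and are not all initiation factors proper. They include the genes of the eIF4E binding proteins EIF4EBP1, EIF4EBP2, EIF4EBP3 and EIF4ENIF1. EIF4A3, a helicase of the exon junction complex, and EIF5A2, a relative of a factor that helps stalled ribosomes move on, are counted there too. All 51 were measured in polyadenylated RNA of pig (Sus scrofa) oocytes, labelled wild type, at metaphase II (MII), where the mature egg waits for the sperm. In the group with heat stress plus L-Asp, germinal vesicle stage oocytes were held at 41.5 °C for 24 h with L-Asp (the usual code for L-aspartic acid) in the medium and then at 38.5 °C up to MII. In the heat stress group the same heat was given without L-Asp, and control oocytes stayed at 38.5 °C. The labels list 0.5, 1.0 and 1.5 mmol/L of L-Asp without saying which was sequenced, and give 25 oocytes per group without saying how these were shared among the 3 libraries of each group. Oocytes of all groups were collected with compact cumulus layers and matured in a medium with follicular fluid, gonadotropins and epidermal growth factor, and whether the libraries of a group had separate animals or cultures behind them is not said.

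Initiation begins when eIF2 brings the initiator tRNA to the small ribosomal subunit, with eIF1, eIF1A and the many-subunit eIF3 bound to it. The cap-binding eIF4F complex recruits the mRNA, and eIF5B joins the large subunit. During elongation eEF1A delivers aminoacyl-tRNA, eEF1B recharges eEF1A with GTP, and eEF2 moves the ribosome along the mRNA. Fully grown oocytes hardly transcribe, and the maturing egg relies on stored mRNAs that are activated or silenced largely through the length of their poly(A) tails. The libraries were primed with oligo(dT), so a change in tail length and a change in RNA amount cannot be told apart here, and in a bulk sample fewer cells of a type and less RNA per cell cannot be told apart either.

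Total counts were 41693395 to 49008681 per library with heat stress plus L-Asp, 46198885 to 53327419 with heat stress and 54965064 to 58361475 in control. The 3 control libraries were close to one another. Their median index of dispersion, the squared difference between libraries relative to that of independent counts, was 5.19 to 5.22 per pair, against 79.4 to 84.9 between L-Asp libraries and 109 to 119 between heat stress libraries. For the translation factor genes alone it was 4.54 to 8.84 in control, 80.6 to 151 with L-Asp and 118 to 213 with heat stress. The control libraries were therefore counted as 1 sample in the tests, whose spread between preparations could not be measured. Oocyte markers were present in every library: 11 of the 12 listed had a row, and their summed level was 19062 to 22136 CPM (counts scaled to library size with TMM factors) with L-Asp, 14796 to 19117 CPM with heat stress and 30617 to 30856 CPM in control. Most of that sum was BTG4, BMP15 and KPNA7. BTG4 alone averaged 7219 CPM with L-Asp, 7158 CPM with heat stress and 15373 CPM in control. In heat stress against control 2 of the 11, ZP3 and ZP4, had a log2 fold change above 0. Of 20 cumulus and granulosa markers, 17 had a row, 12 were tested and 9 of these had a log2 fold change above 0 with heat stress against control. The list summed to 1182 to 1222 CPM with L-Asp, 1191 to 1572 CPM with heat stress and 1157 to 1197 CPM in control, most of it RGS2, VCAN and GATA4. PTX3 was at 0 everywhere, and LHCGR, INHBA, AMH and GATA6 were at 0 in control. INHBA and GATA6, both among the 9, could therefore not have a log2 fold change below 0 against control. CYP11A1, the enzyme that starts steroid synthesis in granulosa cells, averaged 3.20 CPM with L-Asp, 8.95 CPM with heat stress and 0.0375 CPM in control. Theca, blood and endothelial markers each summed to at most 10.7 CPM in any library. Heat stress replicate 3 stood apart in its mitochondrial share of counts (14.5%, against 3.09% and 5.18% in the other heat stress libraries and 10.0% to 10.1% in control).

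Levels of different genes are compared here in the authors' deposited FPKM, which divides by transcript length. These values are not scaled with the TMM factors, so differences between groups are to be read from CPM and the tests. Initiation factor RNA was dominated by 3 genes in every group. EIF1, which monitors start codon choice, averaged 710.2 FPKM with heat stress plus L-Asp, 714 FPKM with heat stress and 630.1 FPKM in control. In CPM the same gene averaged 1062, 1048 and 1022 in that order, and its groups overlapped. EIF5B, the GTPase of subunit joining, averaged 372, 434 and 273 FPKM in the same order of groups, and EIF4G2, a relative of eIF4G that lacks the eIF4E-binding part, averaged 199, 201 and 239.9 FPKM. Together these 3 genes made up 61.2% of summed initiation factor FPKM with L-Asp, 59.5% with heat stress and 59.9% in control.

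The median initiation factor gene had only 7.07 FPKM with L-Asp, 6.66 FPKM with heat stress and 5.50 FPKM in control. Next in the control order came EIF3E at 121 FPKM, then EIF4ENIF1 and EIF2S2 at 102 FPKM each, whose control libraries overlapped. Both heated groups kept the ranks of EIF1, EIF5B and EIF4G2 and had EIF2S2 in the fourth place.

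The 10 elongation factor genes with a symbol reached lower levels than the leading initiation factors. EEF1B2, the exchange subunit that recharges eEF1A, led with 41.1 ± 13.5 FPKM with L-Asp, 58.4 ± 7.81 FPKM with heat stress (SD, n = 3 each) and 24.3 FPKM in control. EEF2, the translocation factor, followed at 17.2 ± 1.83 FPKM, 15.8 ± 1.65 FPKM and 14.4 FPKM in that order of groups. EEF1D, another eEF1B subunit, had only 0.702, 0.712 and 0.612 FPKM.

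Subunits of 1 complex were far from equal in RNA. EIF2S2, the beta subunit of eIF2, exceeded EIF2S1, the alpha subunit that stress kinases phosphorylate, by 17.9- to 20.3-fold in FPKM with L-Asp, 14.5- to 25.2-fold with heat stress and 13.1- to 15.4-fold in control. Within eIF3, EIF3E exceeded EIF3B by 32.1- to 84.95-fold with L-Asp, 70.03- to 126-fold with heat stress and 75.0- to 88.8-fold in control. EIF4ENIF1 encodes the eIF4E transporter 4E-T, which binds eIF4E and holds it away from eIF4G. It exceeded EIF4E itself by 9.10- to 14.8-fold with L-Asp, 11.3- to 16.3-fold with heat stress and 13.2- to 13.7-fold in control, so that the groups overlapped. These gene pairs were chosen with their values known.

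**Figure D1:**
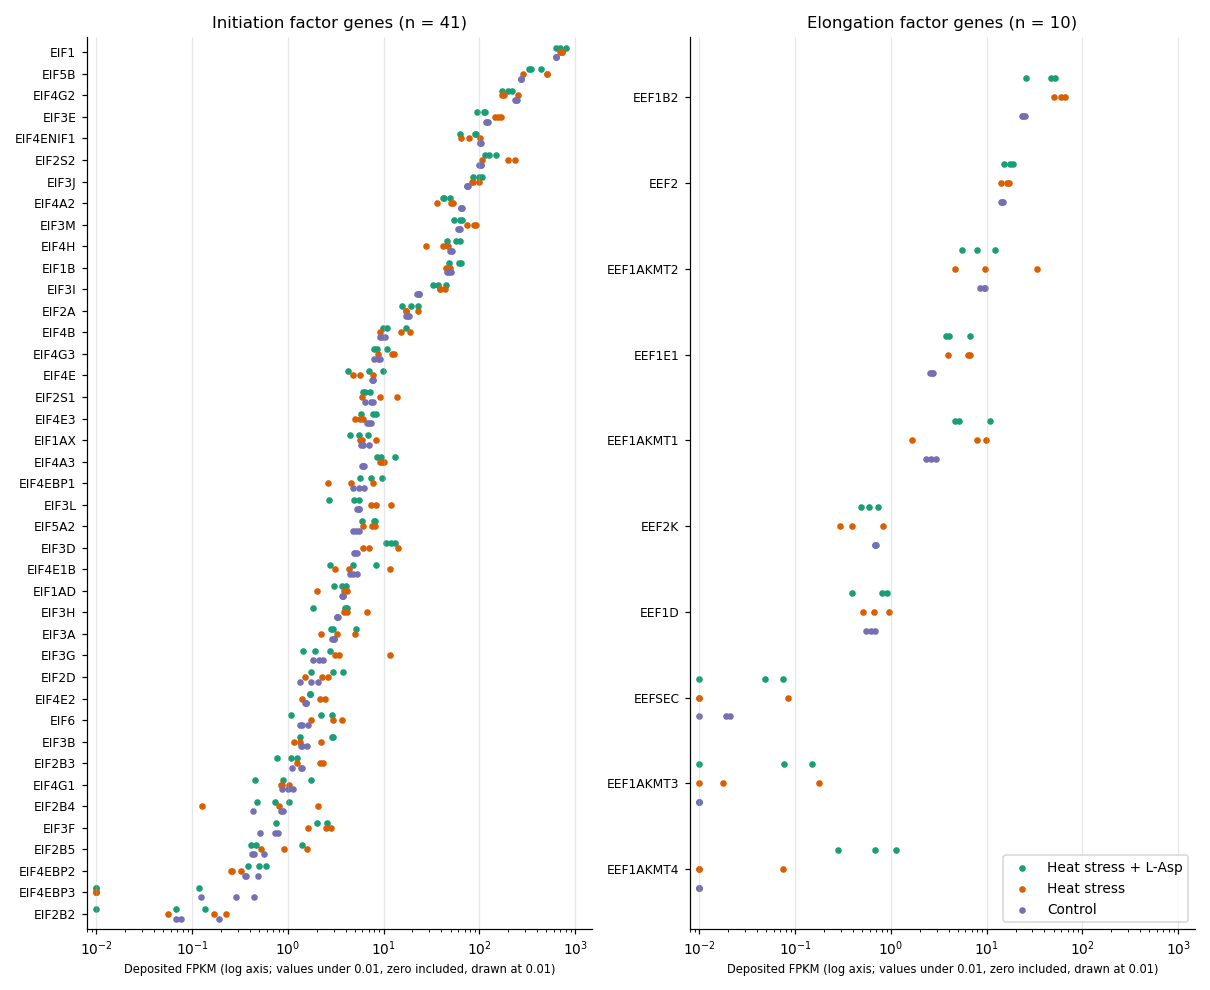
Deposited FPKM (log axis) of each of the 41 initiation and 10 elongation factor genes, ordered by the control mean, with 1 point per library for heat stress plus L-Asp, heat stress and control. EIF1, EIF5B and EIF4G2 lead in every group, EEF1B2 leads the elongation factors, and in 46 of the 51 genes the control points span a smaller FPKM range than those of either heated group. Control libraries were closer to one another over all genes too (median index of dispersion 5.19 to 5.22, against 79.4 to 119 in the heated groups).

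The genes of the eIF4E family, which binds the mRNA cap, had under 50 CPM in every library. EIF4E measured 42.3, 18.0 and 30.4 CPM with L-Asp, 24.3, 18.4 and 34.5 CPM with heat stress and 34.9, 35.8 and 35.4 CPM in control. EIF4E3 measured 25.9, 27.6 and 19.5 CPM with L-Asp, 20.9, 17.3 and 17.6 CPM with heat stress and 27.0, 24.5 and 25.8 CPM in control. For both, all 3 heat stress libraries lay below the control mean, and the L-Asp libraries lay on both sides of it.

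EIF4E2, a competitor of eIF4E for the cap, measured 26.0, 26.0 and 26.5 CPM with L-Asp, 37.9, 30.0 and 22.2 CPM with heat stress and 25.4, 26.0 and 26.1 CPM in control. EIF4E1B, an eIF4E relative that in Xenopus oocytes belongs to a repressing complex with CPEB and 4E-T, measured 9.02, 3.0 and 5.26 CPM with L-Asp, 4.83, 11.4 and 3.58 CPM with heat stress and 5.71, 6.24 and 5.31 CPM in control. The heated libraries of EIF4E1B lay on both sides of control.

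Heat stress against control asks what heat during the first part of maturation left behind at MII. Of the 51 genes, 50 passed the filter on low counts; EIF4EBP3 did not, at 0.0991 CPM in 1 L-Asp library, 0 in the other L-Asp and all heat stress libraries and 0.111 to 0.394 CPM in control. In edgeR's quasi-likelihood test, with p-values adjusted after Benjamini and Hochberg, 0 of the 50 passed for heat stress against control, as did 0% of all 15012 genes tested. At an unadjusted p under 0.05 there was 1 of the 50, EEF1B2, which was higher; the share of all tested genes was 3.86%, with 1.96% higher and 1.9% lower. Without heat stress replicate 1 there were 2, beside 4.35% of all genes, and without replicate 3 there were 8, beside 6.1% of all genes. In 12 of the 50 all 3 heat stress libraries lay above the control mean and in 9 all lay below it, where the shares of all tested genes were 17.6% and 24.6%.

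Among initiation factors 26 of 40 tested genes had a log2 fold change above 0 with heat stress, with a median of 0.21, and among elongation factors 8 of 10, with a median of 0.86. Over all tested genes 50.1% lay above 0, with a median of 0.0016. The 8 and the elongation median include EEF1AKMT3 and EEF1AKMT4, both at 0 counts in control. Neither could lie below 0 against such a control, and the size fitted for such a gene depends on the prior count. With a mean count of at least 50, 5 of 7 elongation factor genes lay above 0. Over the alternatives run the elongation median ranged from 0.58 to 1.03.

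EEF1B2 (ENSSSCG00000016128, chromosome 15, 109451514 to 109455525, plus strand) had the smallest p of these genes. It measured 81.4, 79.6 and 69.9 CPM with heat stress, against 34.4, 37.1 and 35.3 CPM in control, so that the groups did not overlap. Its log2 fold change was 1.10 ± 0.41 (SE; edgeR, unadjusted p = 0.0218, adjusted p = 1.00). It passed where the 3 control libraries were taken as 3 samples (edgeR, adjusted p = 0.0276), a setting that called 2.88% of all tested genes, and not by DESeq2, which called 0.773%. Of the 12 tested cumulus and granulosa markers 9 also had a log2 fold change above 0 with heat stress, beside 50.1% of all tested genes. INHBA and GATA6, both among the 9, were at 0 in control and could not lie below 0. Among these 9, CYP11A1 (5.84, 6.23 and 14.8 CPM), GJA1, VCAN, INHA, INHBA and GATA6 were higher than control in each heat stress library. INHA, INHBA and GATA6 had at most 1.56 CPM there. STAR, RGS2 and TNFAIP6 lay on both sides of the control mean. FST, GATA4 and CYP19A1 lay below 0, and FST was below the control mean in every heat stress library. The part of such cells in the EEF1B2 values was not tested.

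EEF1E1, which despite its name is best known as a scaffold part of the multi-synthetase complex, measured 39.0, 32.4 and 23.4 CPM with heat stress, against 15.9, 16.5 and 17.2 CPM in control. All heat stress libraries lay above control, with a log2 fold change of 0.93 ± 0.49 (SE; edgeR, unadjusted p = 0.0839, adjusted p = 1.00). EEF1D measured 1.68, 1.98 and 3.21 CPM, against 2.17, 1.93 and 2.38 CPM in control, with a log2 fold change of 0.077 ± 1.09 (SE; edgeR, adjusted p = 1.00). EEF2 measured 59.0, 54.8 and 51.4 CPM with heat stress, against 57.5, 53.9 and 55.6 CPM in control, and these overlapped. The FPKM ratio of EEF1B2 to EEF2, a pair chosen with its values known, was 3.59 to 3.83 with heat stress, against 1.58 to 1.81 in control. With L-Asp it was 1.38 to 3.37.

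Of the 11 tested eIF3 subunit genes with a symbol, 10 had a log2 fold change above 0 with heat stress, with a median of 0.44. For 7 of them all 3 heat stress libraries lay above the control mean. The shares of all tested genes were 50.1% above 0 and 17.6% with all 3 libraries above the control mean. None of the 11 passed the test and none had an unadjusted p under 0.05 (edgeR). The exception in direction was EIF3B, a scaffold subunit, at 6.06, 8.91 and 5.38 CPM with heat stress, against 6.73, 6.61 and 7.65 CPM in control. EIF3I, which binds EIF3B, measured 87.0, 68.1 and 79.3 CPM with heat stress, against 49.5, 50.3 and 47.3 CPM in control, with no overlap. EIF3J, a loosely bound subunit, measured 334, 251 and 299.7 CPM, against 273, 275 and 268 CPM in control, and here heat stress replicate 2 lay below the control libraries. Over the alternatives run, 9 to 11 of the 11 lay above 0.

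Of the 11 tested genes of eIF4F and its helpers, 5 lay above 0 with heat stress, with a median log2 fold change of -0.27. In 6 of the 11 all 3 heat stress libraries lay below the control mean, where the share of all tested genes was 24.6%. EIF4A2, the RNA helicase that unwinds 5' leaders, measured 205, 125 and 197 CPM with heat stress, against 268, 269 and 274 CPM in control. Its relative EIF4A3, the helicase of the exon junction complex, lay the other way at 70.3, 58.6 and 64.6 CPM, against 45.3, 46.1 and 43.8 CPM in control. Neither gene's groups overlapped, and the FPKM ratio of EIF4A2 to EIF4A3 was 3.84 to 5.47 with heat stress, against 10.5 to 11.2 in control. This pair joins a lower and a higher gene and was chosen with its values known.

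EIF4G2 measured 843, 794 and 1270.4 CPM with heat stress, against 1258, 1268 and 1292 CPM in control. EIF4ENIF1 measured 289, 314 and 475 CPM, against 503, 496 and 497 CPM in control. For both genes heat stress replicates 1 and 2 lay far below control and replicate 3 lay close to it. EIF4H, which stimulates the eIF4A helicase, measured 105, 140.0 and 181 CPM with heat stress, against 200.3, 208 and 204 CPM in control, all below. EIF4G3 measured 91.2, 85.1 and 67.0 CPM with heat stress, against 63.5, 70.4 and 74.0 CPM in control, which overlapped.

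The same split among heat stress libraries was seen in genes that were higher. EIF5B measured 4568, 4035 and 2589 CPM with heat stress, against 2631, 2604 and 2598 CPM in control. EIF2S2 measured 748, 566 and 346 CPM with heat stress, against 353, 343 and 353 CPM in control. In both, replicates 1 and 2 were high and replicate 3 lay at the control level.

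Among the 10 tested factor genes of at least 100 CPM on average, replicate 3 was the heat stress library nearest to control in 7 (70%) and the farthest in 0, where among all 1819 tested genes of that level it was nearest in 40.7% and farthest in 26.8%. This set of 10 and its measure were chosen with the values known. Over all 50 tested factor genes replicate 3 was nearest in 46% and farthest in 16%, beside 35.3% and 27.8% of all tested genes. Without replicate 3 the edgeR test gave an unadjusted p under 0.05 for 6 of the 40 initiation factors, against 0 with it, while the share of all genes was 6.1% without it and 3.86% with it. EIF1, EIF1B and EIF2A showed no such split: EIF1 measured 1109, 974 and 1061 CPM with heat stress, against 1017, 1031 and 1017 CPM in control, EIF1B 56.9, 49.5 and 52.8 CPM, against 56.0, 61.6 and 58.3 CPM in control, and EIF2A, an alternative carrier of initiator tRNA, 56.0, 49.6 and 76.4 CPM, against 60.2, 63.8 and 65.3 CPM in control.

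**Figure D2:**
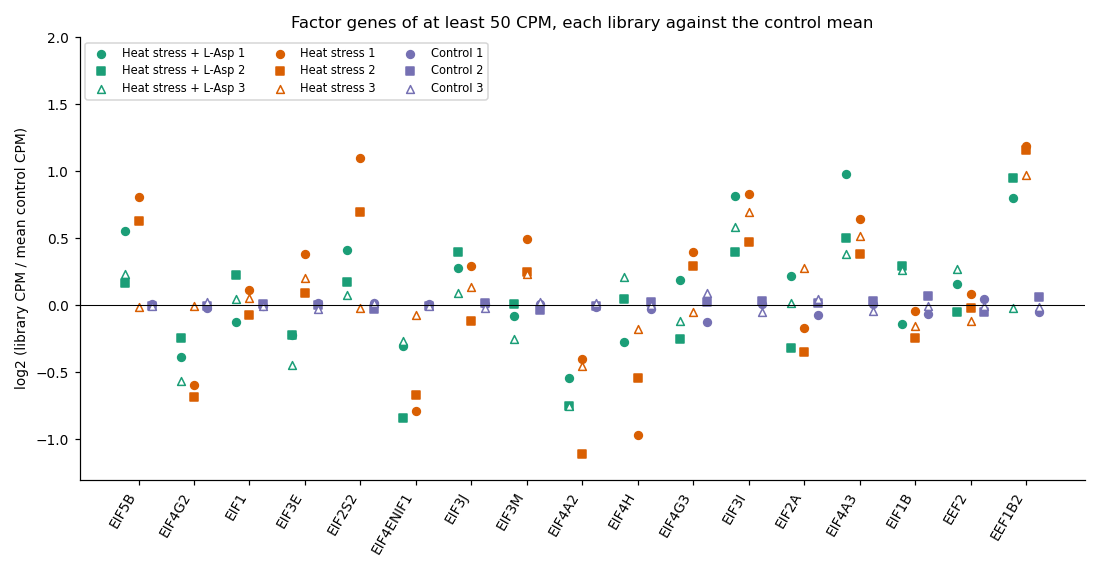
Log2 ratio of each library's CPM to the control mean for the 17 factor genes of at least 50 CPM on average, with heat stress plus L-Asp, heat stress and control side by side and a marker shape for each replicate number (open triangles are replicate 3). Heat stress replicate 3 lies near 0 for EIF5B, EIF4G2, EIF2S2 and EIF4ENIF1, where replicates 1 and 2 do not, and EEF1B2 lies about 1 above control in all 3 heat stress libraries.

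Setting L-Asp oocytes against heat stress oocytes addresses what the compound added to the same heat. By edgeR with Benjamini-Hochberg adjustment 0 of the 50 tested genes passed, as did 0% of all tested genes, and the smallest adjusted p among the 50 was 0.738. An unadjusted p under 0.05 was found for 6 of the 50, where the share of all tested genes was 6.61%, with 3.52% higher and 3.1% lower. These were EIF3L, EIF3E, EIF2B3, EIF3G and EIF3M, lower with L-Asp, and EIF4H, higher. The count was 3 without heat stress replicate 1 (4.27% of all genes) and 10 without replicate 3 (10.5%). It was 4, 3 and 1 without L-Asp replicates 1, 2 and 3 (7.66%, 4.72% and 2.96% of all genes). With 9 libraries as samples 0.0133% of all genes were called, by DESeq2 0.822%, and 0 of the 50 by either. In 6 of the 50 all L-Asp libraries lay below all heat stress libraries and in 2, EIF4EBP2 and EEF1AKMT4, all lay above, where the shares of all tested genes were 5.54% and 6.31%. EEF1AKMT4 passed the filter on low counts only through the L-Asp group, so nothing is concluded from its place among the 2. Of the initiation factors 19 of 40 lay above 0, with a median log2 fold change of -0.060, and of the elongation factors 6 of 10, with a median of 0.14, beside 49% of all tested genes and their median of -0.010. EEF1AKMT3 and EEF1AKMT4, at 0 counts in some libraries, are among those 6. Over the alternatives run the elongation median ranged from -0.0063 to 0.28.

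Of the 5 lower genes 4 were eIF3 subunits. Among the 11 eIF3 genes with a symbol 4 had an unadjusted p under 0.05 and the median log2 fold change was -0.35, beside 6.61% and -0.010 over all tested genes. The row described as eIF3 subunit K, which has no symbol, was higher (log2 fold change 0.60; edgeR, unadjusted p = 0.0200). Without L-Asp replicate 1 the count of 4 fell to 2 (7.66% of all genes). Without L-Asp replicate 3 only 1 factor gene, EIF3L, was left (2.96%). In the same comparison cumulus and granulosa markers had a median of -0.29 (4 of 12 above 0) and oocyte markers of 0.22 (9 of 11 above 0), and their part in the eIF3 values was not tested. EIF3L (ENSSSCG00000000119, chromosome 5, 9968428 to 9996025, minus strand) measured 23.0, 26.0 and 13.0 CPM with L-Asp, against 35.0, 51.3 and 40.8 CPM with heat stress. Its log2 fold change was -1.04 ± 0.32 (SE; edgeR, unadjusted p = 0.0078, adjusted p = 0.738), and every L-Asp library also lay below the control mean of 28.0 CPM. EIF3E (ENSSSCG00000006033, chromosome 4, 29264042 to 29352902, plus strand) measured 423, 422 and 361 CPM with L-Asp, against 643, 526 and 568 CPM with heat stress. Its log2 fold change was -0.53 ± 0.19 (SE; edgeR, unadjusted p = 0.0162, adjusted p = 0.738), and again every L-Asp library lay below control, at 500.0, 495 and 484 CPM. The L-Asp and heat stress libraries did not overlap for either gene.

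EIF3M (ENSSSCG00000013315, chromosome 2, 28256591 to 28282770, minus strand) measured 226, 240.0 and 201 CPM with L-Asp, against 336, 284 and 280.4 CPM with heat stress; the log2 fold change was -0.43 ± 0.19 (SE; edgeR, unadjusted p = 0.0412, adjusted p = 0.738). Its span overlaps that of CCDC73 on the other strand, and reads of the 2 genes cannot be told apart where the preparation does not mark strand. EIF3G (ENSSSCG00000013661, chromosome 2, 68966222 to 68970614, minus strand), an RNA-binding subunit, measured 2.06, 3.95 and 2.80 CPM with L-Asp, against 4.46, 15.1 and 5.06 CPM with heat stress; the log2 fold change was -1.48 ± 0.61 (SE; edgeR, unadjusted p = 0.0339, adjusted p = 0.738). The size for EIF3G rests on heat stress replicate 2, without which the log2 fold change was -0.69.

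EIF3E, EIF3L and EIF3M are known as subunits of the PCI and MPN core of eIF3. The other core genes with a symbol, EIF3A, EIF3F and EIF3H, overlapped between the groups: EIF3A measured 31.2, 18.2 and 17.6 CPM with L-Asp, against 13.9, 27.3 and 20.8 CPM with heat stress, and EIF3H 33.6, 35.4 and 15.9 CPM, against 36.3, 29.7 and 59.7 CPM. Outside the core, EIF3D, a cap-binding subunit, measured 30.9, 27.3 and 35.0 CPM with L-Asp, against 18.4, 32.8 and 16.5 CPM with heat stress, and EIF3I 86.3, 64.4 and 73.3 CPM, against 87.0, 68.1 and 79.3 CPM. Their groups overlapped too. The FPKM ratio of EIF3L to EIF3D, a pair chosen with its values known, was 0.204 to 0.523 with L-Asp, 0.862 to 1.37 with heat stress and 1.03 to 1.13 in control.

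EIF2B3 (ENSSSCG00000029808, chromosome 6, 166353934 to 166487653, plus strand) encodes the gamma subunit of eIF2B, the factor that recharges eIF2 with GTP. It measured 13.7, 11.9 and 8.75 CPM with L-Asp, against 24.4, 23.3 and 14.5 CPM with heat stress, without overlap. Its log2 fold change was -0.86 ± 0.35 (SE; edgeR, unadjusted p = 0.0321, adjusted p = 0.738). The other eIF2B genes with a symbol, EIF2B2, EIF2B4 and EIF2B5, had 0 to 4.14 CPM with L-Asp and 0.323 to 4.38 CPM with heat stress, and all overlapped. EIF2S2 measured 465, 394 and 368 CPM with L-Asp, against 748, 566 and 346 CPM with heat stress, and EIF5B 3839.7, 2925 and 3070.3 CPM, against 4568, 4035 and 2589 CPM. For both the L-Asp libraries lay within the wide heat stress range.

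EIF4H (ENSSSCG00000025966, chromosome 3, 11320897 to 11348473, plus strand) measured 169, 211 and 236 CPM with L-Asp, against 105, 140.0 and 181 CPM with heat stress. Its log2 fold change was 0.53 ± 0.24 (SE; edgeR, unadjusted p = 0.0486, adjusted p = 0.738), although L-Asp replicate 1 lay below heat stress replicate 3. EIF4EBP2, an inhibitor that holds eIF4E when it is not phosphorylated by mTOR, measured 4.80, 3.06 and 4.07 CPM with L-Asp, against 2.1, 1.9 and 2.70 CPM with heat stress, without overlap, with an unadjusted p of 0.208. Its relative EIF4EBP1 measured 15.0, 19.4 and 25.8 CPM, against 7.09, 11 and 21.4 CPM, with overlap. EIF4G2 averaged 971 ± 108 CPM with L-Asp and 969 ± 262 CPM with heat stress, and EIF4ENIF1 averaged 366 ± 75.3 CPM and 359.5 ± 101 CPM (SD, n = 3 each), differences smaller than the spread between libraries. EIF4A2 measured 186, 161 and 161 CPM with L-Asp, within the heat stress range.

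Among elongation factors EEF1B2 measured 62.0, 68.7 and 35.1 CPM with L-Asp, against 81.4, 79.6 and 69.9 CPM with heat stress. All L-Asp libraries were lower, and the third was at the control level, with a log2 fold change of -0.48 ± 0.27 (SE; edgeR, unadjusted p = 0.109, adjusted p = 0.759). EEF1E1 (21.0, 38.5 and 23.5 CPM with L-Asp) and EEF2 (62.3, 53.7 and 67.0 CPM) overlapped with heat stress, as did EEF1D (2.58, 1.26 and 3.03 CPM). The log2 fold changes of EEF1E1 and EEF1D were -0.19 ± 0.33 and -0.0013 ± 0.77 (SE; edgeR, adjusted p = 0.967 and 1.00).

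The enzymes that modify elongation factors differed widely in level. EEF1AKMT2, a lysine methyltransferase of eEF1A, came after EEF1B2 and EEF2 among the 10 elongation factor genes at 8.52 FPKM with L-Asp, 15.8 FPKM with heat stress and 9.18 FPKM in control. It measured 16.1, 10.6 and 7.45 CPM with L-Asp, 45.2, 5.58 and 13.2 CPM with heat stress and 13.8, 14.0 and 12.3 CPM in control, so that heat stress replicate 1 alone was high. EEF1AKMT4, of the same family, had 65, 27 and 91 counts with L-Asp, 0, 0 and 8 with heat stress and 0 in each control library. In CPM the L-Asp libraries had 1.29, 0.533 and 2.11, and a count of 0 allows up to 0.0557 to 0.0590 CPM in control (3 counts per library, for counting error only, and PCR copies are not independent molecules). It passed the filter on low counts through the L-Asp group, so its test is not given. EEF2K, the kinase that inactivates eEF2, measured 4.10, 2.77 and 3.40 CPM with L-Asp, 4.79, 1.52 and 2.30 CPM with heat stress and 4.25, 4.29 and 4.24 CPM in control.

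**Figure D3:**
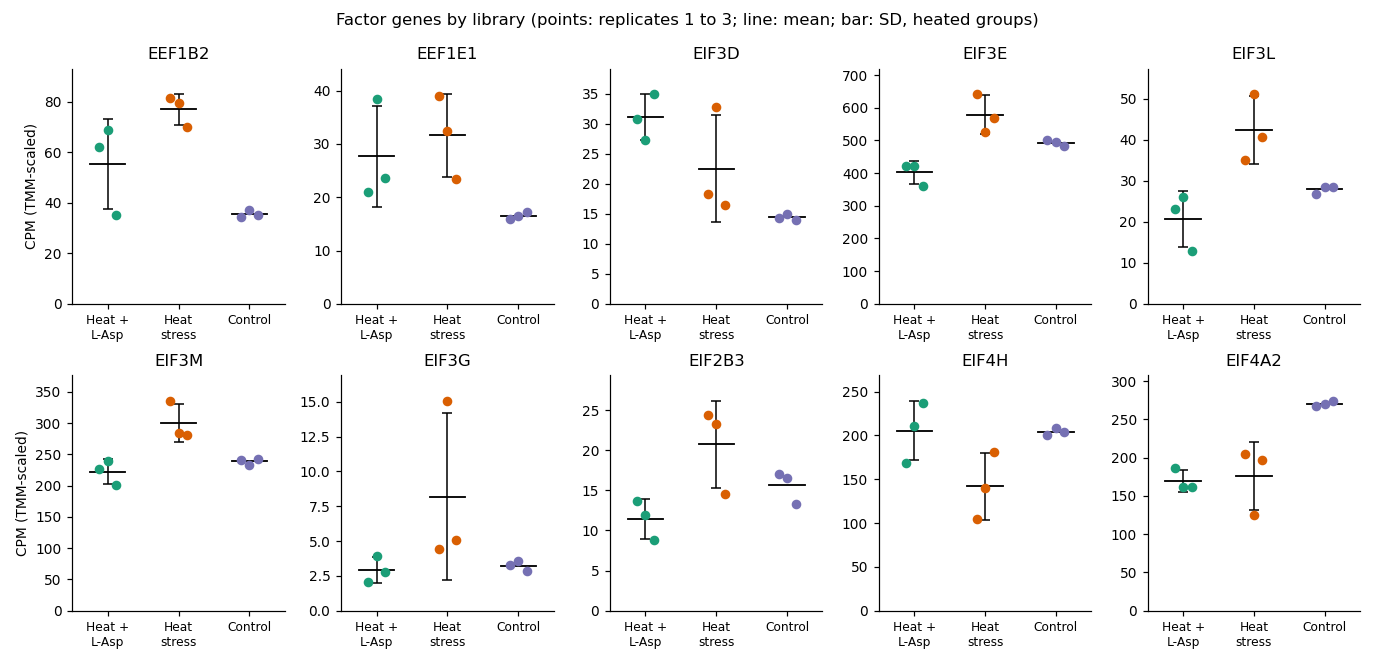
CPM of 10 factor genes in each library, with heat stress plus L-Asp, heat stress and control from left to right; lines are means and bars the SD of the heated groups (n = 3 each), and control, counted as 1 sample, has no bar. EIF3E, EIF3L, EIF3M, EIF3G and EIF2B3 have all L-Asp points below all heat stress points, EEF1B2 has all heat stress points above control, and EIF4A2 has all heated points below control.

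Setting L-Asp oocytes against control addresses what remained different after heat with the compound. This comparison shares its L-Asp libraries and its control with the comparisons above. By edgeR 0 of the 50 passed, as did 0% of all tested genes, and 2 of the 50 had an unadjusted p under 0.05, where the share of all tested genes was 3.22%, with 1.63% higher and 1.6% lower. The count was 0 without L-Asp replicate 1, L-Asp replicate 2 or control replicate 3 (3.4%, 2.37% and 3.34% of all genes) and 1 without L-Asp replicate 3 (2.58%). With 9 libraries as samples 1.79% of all genes were called, by DESeq2 0.288%, and 0 of the 50 by either. In 12 of the 50 all L-Asp libraries lay above the control mean and in 9 all lay below, where the shares of all tested genes were 19.2% and 25.7%. The 12 include EEF1AKMT4, which passed the filter on low counts only through the L-Asp group. The median log2 fold change was -0.0015 for the initiation factors (20 of 40 above 0) and 0.68 for the elongation factors (8 of 10 above 0, EEF1AKMT3 and EEF1AKMT4 among them), beside 50.5% of all tested genes above 0 and their median of 0.0067. EEF1AKMT3 and EEF1AKMT4 had 0 counts in control and could not lie below 0. Over the alternatives run the initiation median ranged from -0.020 to 0.064 and the elongation median from 0.15 to 0.85.

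EIF3D (ENSSSCG00000000141, chromosome 5, 11213312 to 11229158, plus strand) measured 30.9, 27.3 and 35.0 CPM with L-Asp, against 14.4, 15.0 and 14.0 CPM in control, with no overlap. Its log2 fold change was 1.10 ± 0.49 (SE; edgeR, unadjusted p = 0.0470, adjusted p = 1.00). EIF4A2 (ENSSSCG00000011803, chromosome 13, 124582898 to 124589291, plus strand) measured 186, 161 and 161 CPM with L-Asp, against 268, 269 and 274 CPM in control, and its log2 fold change was -0.68 ± 0.31 (SE; edgeR, unadjusted p = 0.0495, adjusted p = 1.00). EIF4A3 lay above control at 88.9, 64.0 and 58.7 CPM with L-Asp, and the FPKM ratio of EIF4A2 to EIF4A3 was 3.76 to 4.92 with L-Asp, against 10.5 to 11.2 in control. EIF4G2, at 976, 1076 and 860.2 CPM, and EIF4ENIF1, at 404, 279 and 414 CPM, lay below control in all L-Asp libraries.

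The abundant genes on the other side were EIF3J, at 329, 358 and 289 CPM with L-Asp, and EIF5B, EIF2S2 and EIF3I, whose L-Asp values are given above and which all lay above the control mean. EIF1, at 938, 1194 and 1054 CPM, EIF1B, at 53.3, 71.9 and 70.4 CPM, EIF2A, at 73.5, 50.6 and 63.7 CPM, and EIF4G3, at 79.2, 58.2 and 63.9 CPM, lay on both sides of control. EEF1B2 had a log2 fold change of 0.63 ± 0.40, EEF1E1 of 0.74 ± 0.48 and EEF1D of 0.075 ± 1.09 for L-Asp against control (SE; edgeR, unadjusted p = 0.147, 0.155 and 0.946, adjusted p = 1.00 each).

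**Figure D4:**
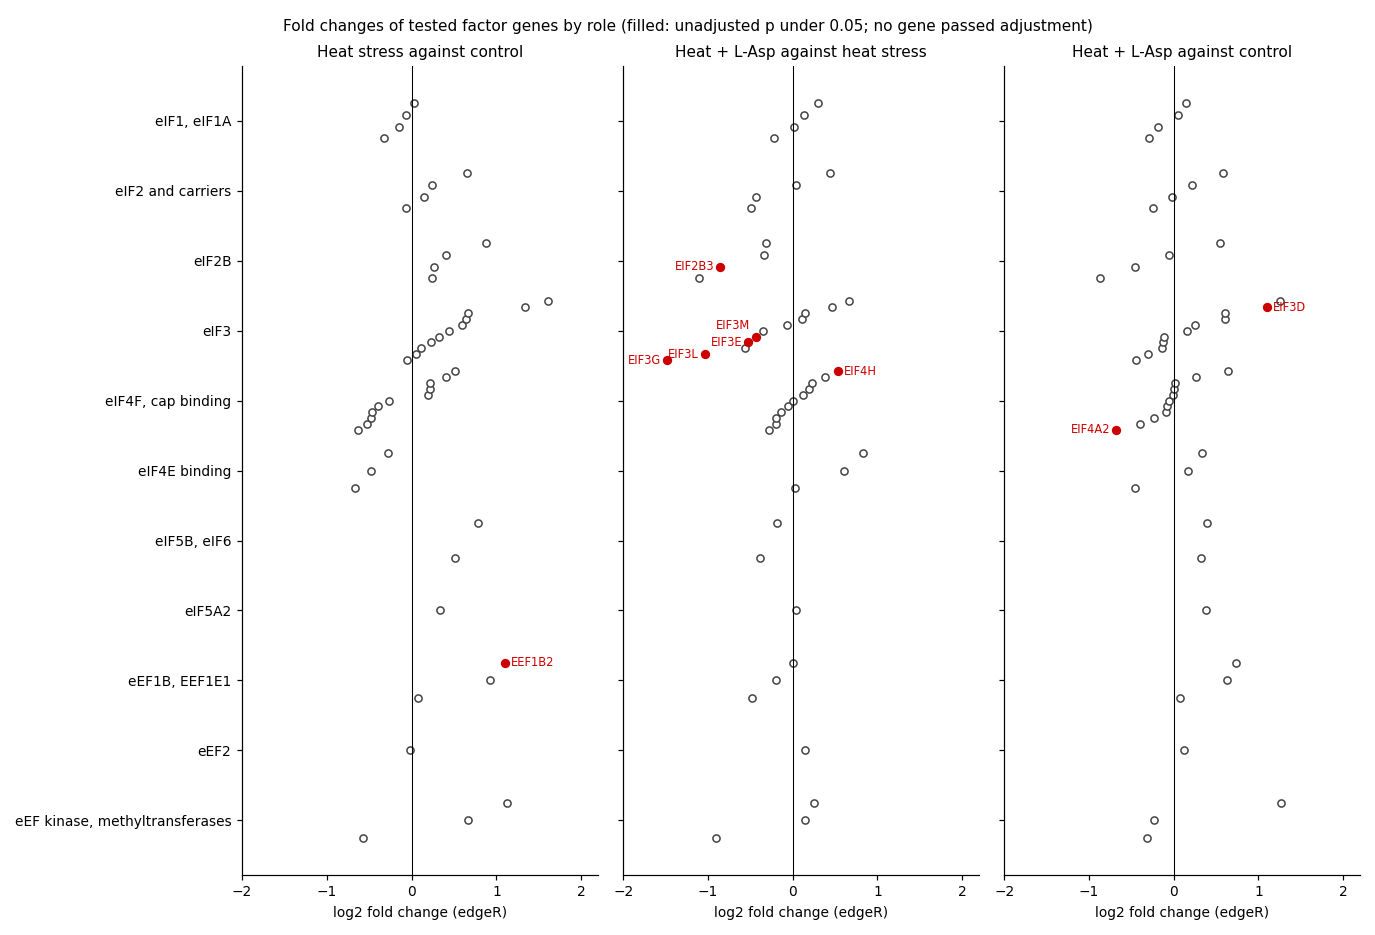
Log2 fold changes from edgeR of the tested factor genes by role in the 3 comparisons, 1 point per gene, filled where the unadjusted p was under 0.05; EEF1AKMT3, EEF1AKMT4 and EEFSEC, at or near 0 counts, are left out. In heat stress against control 10 of 11 eIF3 points lie above 0, where 50.1% of all tested genes do. In L-Asp against heat stress 4 eIF3 points are filled, all below 0, where 6.61% of all tested genes have an unadjusted p under 0.05. The row described as eIF3 subunit K has no symbol and is not drawn, and it was higher with L-Asp (edgeR, unadjusted p = 0.0200).

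The remaining factor genes were of middling or low level. EIF5A2, a relative of the factor that helps stalled ribosomes move on, measured 46.0, 47.3 and 34.8 CPM with L-Asp, 47.8, 31.4 and 45.0 CPM with heat stress and 35.1, 30.4 and 32.6 CPM in control, and all L-Asp libraries lay above the control mean. EIF4B, a partner of the eIF4A helicase, had 26.0 to 44.1 CPM with L-Asp, 24.8 to 44.1 CPM with heat stress and 25.9 to 28.7 CPM in control. EIF1AX, an eIF1A gene, and EIF2S1 lay below the control mean in all L-Asp libraries and on both sides of it with heat stress. EIF6, which keeps the ribosomal subunits apart, had 2.73 to 7.29 CPM with L-Asp, 4.48 to 8.45 CPM with heat stress and 3.68 to 4.41 CPM in control, with all heat stress libraries above control. EIF3F and EIF2B5 also lay above the control mean in all heat stress libraries, and EIF4G1 below it. EIF1AD, EIF2D, EIF2B2, EIF2B4, EEF1AKMT3 and EEFSEC, which encodes the elongation factor for selenocysteine, overlapped in all comparisons. EEF1AKMT1, another methyltransferase gene, had 3.86 to 8.89 CPM with L-Asp, all above control, 1.41 to 7.29 CPM with heat stress and 2.06 to 2.64 CPM in control.

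For 5 further translation factor genes the table gives no symbol but a description, so they fall outside the 51. The description of ENSSSCG00000004489 names eEF1A1, the carrier of aminoacyl-tRNA, at 161 FPKM with L-Asp, 177 FPKM with heat stress and 129.6 FPKM in control, above every elongation factor gene with a symbol. It measured 403, 359 and 399 CPM with L-Asp, 443, 409 and 393 CPM with heat stress and 334, 342 and 336 CPM in control, with all heated libraries above control and a log2 fold change of 0.29 ± 0.26 for heat stress against control (SE; edgeR, adjusted p = 1.00).

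ENSSSCG00000002963, described as eIF3 subunit K, measured 83.5, 74.4 and 103 CPM with L-Asp, 57.4, 54.1 and 59.9 CPM with heat stress and 30.3, 27.6 and 31.3 CPM in control. No pair of groups overlapped, and unlike EIF3E, EIF3L and EIF3M this core subunit was higher with L-Asp than with heat alone. Its log2 fold changes were 0.94 ± 0.33 for heat stress against control, 0.60 ± 0.22 for L-Asp against heat stress and 1.54 ± 0.35 for L-Asp against control (SE; edgeR, unadjusted p = 0.0167, 0.0200 and 9.56e-04, adjusted p = 0.973, 0.738 and 0.797). ENSSSCG00000017957, described as eIF4A1, averaged 64.6 ± 8.90 CPM with L-Asp, 64.9 ± 8.84 CPM with heat stress (SD, n = 3 each) and 84.0 CPM in control, on the same side of control as EIF4A2. The rows described as eIF2B alpha and eEF1 gamma averaged 17.3 and 6.58 CPM with L-Asp, 14.6 and 7.17 CPM with heat stress and 22.8 and 8.59 CPM in control.

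Regulators and partners of these factors were read from 5 further lists. Of 23 tested translation regulators, among them the eIF2 kinases and mTOR, 0 passed in any comparison, as did 0% of all tested genes (edgeR). RHEB, the GTPase that activates mTOR, averaged 143 ± 10.9 CPM with L-Asp, 154 ± 26.7 CPM with heat stress (SD, n = 3 each) and 254 CPM in control (edgeR, unadjusted p = 0.0111 for L-Asp and 0.0229 for heat stress, each against control). PDCD4, an inhibitor of eIF4A, measured 68.7, 56.5 and 34.1 CPM with L-Asp, against 101, 120.2 and 74.4 CPM with heat stress, without overlap (edgeR, unadjusted p = 0.0115, adjusted p = 0.738). Among the eIF2 kinases EIF2AK4, also called GCN2, averaged 68.3 ± 14.2 CPM with L-Asp, 89.5 ± 16.9 CPM with heat stress (SD, n = 3 each) and 87.2 CPM in control.

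Of 12 tested genes for poly(A)-binding proteins, their partners and CPEB proteins, 0 passed, as did 0% of all tested genes. PAIP2, an inhibitor of poly(A)-binding protein, measured 3.29, 4.45 and 4.19 CPM with L-Asp, against 12.4, 12.8 and 11.2 CPM with heat stress, without overlap (edgeR, unadjusted p = 0.0024, adjusted p = 0.738). PABPN1, the nuclear poly(A)-binding protein, measured 356, 374 and 460.5 CPM with L-Asp, 199, 243 and 329 CPM with heat stress and 158, 161 and 163 CPM in control, with no pair of groups overlapping. PABPC1, the main cytoplasmic form, averaged 22.5 ± 7.70 CPM with L-Asp, 25.0 ± 16.3 CPM with heat stress (SD, n = 3 each) and 4.96 CPM in control.

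Of 11 mitochondrial translation factor genes 0 passed, as did 0% of all tested genes. TUFM, which encodes the mitochondrial elongation factor Tu, measured 14.1, 14.2 and 14.8 CPM with L-Asp, 7.58, 7.37 and 13.7 CPM with heat stress and 4.00, 4.16 and 4.43 CPM in control. MRPL58, a mitochondrial peptide-release protein of the ribosome, averaged 40.9 ± 5.62, 43.9 ± 3.92 and 22.2 CPM in the same order of groups, with an SD over 3 libraries for the heated groups. The 7 tested genes of termination and recycling and the 7 tested genes of eIF5A and eEF2 modification had 0 with an unadjusted p under 0.05 in any comparison (edgeR). The shares of all tested genes were 3.86% for heat stress against control, 6.61% for L-Asp against heat stress and 3.22% for L-Asp against control. With so few genes a count of 0 is near those shares, and nothing is concluded from it.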

How the data were processed

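The series measured polyadenylated RNA in 9 libraries, 3 per group, grouped by sample title. Per the labels' protocols, cDNA was primed with an oligo(dT) primer, amplified, fragmented and sequenced in pairs on an Illumina instrument, which does not mark strand. In the submitters' processing notes stand edgeR, DESeq2, StringTie 2.1.6, HISAT2 2.2.1 and cutadapt 1.9, without roles. Genome build and counting method: not given in the sources used here. Counts per gene were used as deposited. The FPKM values the authors deposited were used to compare levels between genes and for ratios of 2 genes. They are also printed by group, without TMM scaling, while tests between groups used the counts. A further 6 columns of per-sample values were not used. Coordinates are those of the table. Of the 51 genes, 15 overlap another gene (EIF2A with SERP1, EIF2S1 with PLEK2 and EIF1AD with BANF1 on the other strand and EEF1AKMT3 with TSFM on the same strand, each partner more abundant), and factors with near-identical copies elsewhere, such as EEF1B2 and EIF1, are uncertain to that extent.

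The rounded mean of the control libraries and the 6 heated libraries entered 1 model with a mean per group (edgeR 4.0.16, R 4.3.3): filterByExpr on 9 libraries (15012 genes kept), TMM, glmQLFit with robust = TRUE and glmQLFTest, with 4 residual degrees of freedom, adjusted over all tested genes. An adjusted p under 0.05 was a call. The SE printed with a log2 fold change is its absolute value divided by the square root of the F statistic, since the test itself gives none. The lone control was assumed to vary like the heated groups. The p-values rest on the spread between libraries, which may be technical. CPM are counts scaled by TMM over 9 libraries. Alternatives were DESeq2 1.42.0, its size factors, other filters, 9 libraries as samples, a replicate block and leaving out each library. Pairs for the dispersion index needed 40 counts. Members and lists were chosen with earlier results of these data known. Per-library values are given for genes of at least 50 CPM or an unadjusted p under 0.05, for eEF1 and eEF2 subunits and for the eIF4E family, other members being named as examples. For the further lists, at most 3 genes of smallest p per list and comparison are named, and EIF2AK4, outside that rule, was chosen after its values were seen. For list genes, symbols came also from a table of gene names for 116 rows.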

Additional observations from a re-analysis of the deposited data

How the results depend on the processing

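The count of called genes was 0 in all 3 comparisons and depended on the treatment of the control and on the tool. For heat stress against control it was 433 with all 9 libraries as separate samples, 172 by DESeq2 and 9 without a filter on low counts; for L-Asp against control it was 269, 64 and 3 under the same settings. For L-Asp against heat stress it was 2 with 9 libraries, 183 by DESeq2, 2 without a filter and 2 with the filter recomputed on 7 libraries. Leaving out each library in turn gave 0 to 1, 0 to 3 and 0 to 1 genes for heat stress against control, L-Asp against heat stress and L-Asp against control. Of the factor genes, EEF1B2 was the 1 called for heat stress against control with 9 libraries as samples, and 0 were called by DESeq2, under any other setting but the replicate block, or without any single library (0 to 0 in each comparison).

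Same-numbered heat stress and L-Asp libraries did not deviate together (r across genes 0.0518, -0.0214 and 0.0104), so the numbers were not taken to pair the samples. With the replicate block and 9 libraries 378 genes and 1 factor gene, EEF1B2 (adjusted p = 0.0242), were called for heat stress against control, and 223 genes and 0 factor genes for L-Asp against control; with the block on the 6 heated libraries 0 genes were called for L-Asp against heat stress.

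Among 272 recomputed fold changes of the factor genes given with one, 264 kept their direction and side of the threshold. EEF1D, with under 4 CPM in every library, changed sign in 6 of the 272, and the cause was not tested. The 272 include fits without a library of the group not compared, which can hardly move a fold change. In the edgeR test reported above, these genes had an adjusted p of 0.738 or more, far from the threshold. The 264 are therefore no measure of stability. Leaving out single libraries gave EEF1D log2 fold changes of -0.25 (without heat stress replicate 3) to 0.26 for heat stress against control, -0.26 to 0.33 for L-Asp against heat stress (0.33 without heat stress replicate 3 and 0.31 without L-Asp replicate 2) and -0.18 to 0.38 for L-Asp against control (-0.18 without L-Asp replicate 3 and -0.018 without replicate 1). With a mean count of at least 50 it was 0.0041 for L-Asp against heat stress.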
